A study of Mus musculus with 6 samples.

Results

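The genes of the eukaryotic translation initiation factors were compared between FLExDUX4 and wild-type muscle. The members were all mouse genes of the deposited table whose symbol begins with Eif and a digit from 1 to 6. Of 63 such genes, the 7 kinases of eIF2 and binding proteins of eIF4E (Eif2ak and Eif4ebp) and 7 pseudogenes were left out, which left 49 of 52550 genes. RNA came from 3 male FLExDUX4 mice and 3 male wild-type (WT) littermates, labelled as quadriceps at 13 weeks of age, while the methods of the study give triceps and a younger age. FLExDUX4 mice carried a single copy of the allele Gt(ROSA)26Sortm1.1(DUX4*)Plj on a B6(Cg) background. This is a human DUX4 transgene placed backwards in the Rosa26 locus, which no Cre had turned and which is leaky at a low level without Cre, and WT mice lacked it. DUX4 is the transcription factor whose expression in muscle causes facioscapulohumeral muscular dystrophy. Human DUX4 was not analysed here, so the transgene was not checked.

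Libraries were made with QuantSeq, which reads each polyadenylated transcript near its tail. A count therefore stands for about a transcript, and levels of different genes were compared without dividing by length. How fully the reads of each gene are counted was not checked, and no interval on a fold between different genes covers it. Only the total count of each gene over each genotype was used, and no value of a single mouse. There is therefore no replicate error on any value, no p-value is given, and a single mouse could decide any difference. The totals on genes were 13110125 counts for FLExDUX4 and 18367364 for WT. Each ratio is the log2 of FLExDUX4 over WT after TMM scaling (a trimmed mean that sets the bulk of genes to no difference), with a 95% Clopper-Pearson interval that covers counting error only. Spike-in RNAs, added to each sample, took 1.65% and 1.40% of counts, and using them for scaling instead would lower every ratio by 0.28, taking the median of all genes from -0.0010 to -0.28. Markers of muscle fibers were high: Acta1, Ckm, Mylpf, Tnnt3, Myh4 and Ttn had 6-gene sums of 132968 and 134490 CPM (counts scaled to a library of 1000000), while for liver Apoa1 was at 0 and Alb had 2 and 4 counts, and Xist was at 0. These markers cannot tell quadriceps from triceps. The adipocyte markers Adipoq, Plin1 and Cfd summed to 147 CPM in FLExDUX4 and 83.6 CPM in WT, with all 3 ratios above 0 (0.41 to 0.88). Both macrophage markers, Adgre1 and Cd68, had lower values in FLExDUX4 (-0.66 and -0.64) on few counts, and endothelial markers were near 0. The part of these cells in the values that follow was not tested.

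Initiation begins when eIF2 carries the initiator tRNA to the small ribosomal subunit, which is held ready by eIF1, eIF1A, eIF3 and eIF5. The eIF4F complex (the cap-binding eIF4E, the scaffold eIF4G and the helicase eIF4A) brings the mRNA, the complex scans to the start codon, and eIF5B joins the large subunit. eIF2B recharges eIF2 with GTP, and both this step and cap binding are known points of control by stress and growth signals in muscle.

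Most of these genes differed little between the totals. Of 49 members, 46 had enough counts to be compared, and their log2 ratios ran from -0.45 to 0.48 with a median of -0.048. In bulk muscle, fewer cells of a type and less RNA per cell cannot be told apart. None of the 46 was past 1.5-fold in either direction, while 26.8% of the 13396 genes compared were, 13.2% higher and 13.5% lower. Much of that share lies in genes with few counts, and among the 9300 genes with at least 100 counts it was 12.2%. Of the 46 members, 45 had at least 100 counts, and all but 3 had over 300, where the share of all genes past 1.5-fold was smaller still: 7.53% from 300 to 1000 counts, 1.70% from 1000 to 3000 and 0.334% over 3000. The count of 0 is therefore not read as particular to the members. The members' summed level was 4222 CPM in FLExDUX4 and 4267 CPM in WT, a ratio of -0.015 (interval -0.031 to 0.00064). As a share of all counts on genes, the 49 members took 0.418% (interval 0.414 to 0.421) and 0.431% (interval 0.428 to 0.434).

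For 40 of the 46 members the whole counting interval lay inside 1.5-fold, and 25 ratios lay within 0.1 of 0. The interval lay above 0 for 6 members and below 0 for 11, or 13.0% and 23.9%, against 20.5% and 20.6% of all genes compared. It held 0 for the other 29. Ratios were above 0 for 18 of 46 members (39.1%), against 49.9% of all genes, and for 3 of 46 against 25.2% under spike-in scaling. On that scale no member had an interval above 0 and 35 had it below 0, where the interval excluded 0 for 54.7% of all genes. Also on that scale, 4 members were past 1.5-fold, against 31.5% of all genes: Eif2s3x, Eif2s3y, Eif6 and Eif2b1, all lower. At a lower limit, a log2 ratio of 0.32 in either direction, 6 members were past it under TMM scaling, against 45.5% of all genes. Eif1a, Eif2d and Eif2b5 were the higher ones, and Eif2s3x, Eif2s3y and Eif6 the lower ones. The shares of all genes given here were not matched for depth, on which intervals and fold calls depend. Of the 13396 genes compared, 7272 had up to 300 counts, against 3 of the 46 members.

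**Figure D1:**
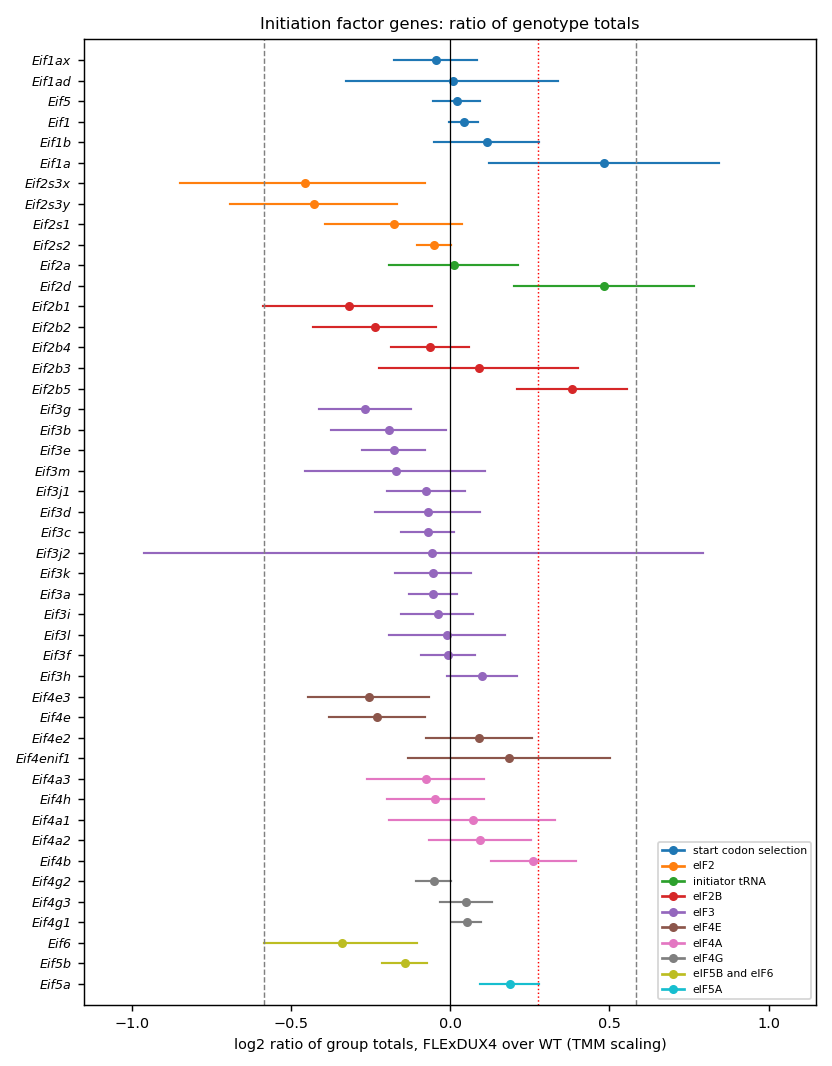
Log2 ratio of genotype totals (horizontal axis) for the 46 initiation factor genes compared, coloured by complex; points are ratios under TMM scaling and bars are 95% counting intervals. Dashed lines mark 1.5-fold and the red dotted line marks where no difference would lie under spike-in scaling. No point lies past 1.5-fold, and 13 of the 14 eIF3 genes lie below 0.

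The size of the ratios fell with depth, for members as for other genes. Up to 300 counts in both totals together, it had a median of 0.45 for 3 members and 0.52 for 7272 genes. Among members with over 3000 counts, 12 genes, the median size of the ratio was 0.052, and it was 0.075 over the 898 genes of that depth. From 1000 to 3000 counts it was 0.083 for 18 members and 0.13 for 1826 genes. From 300 to 1000 counts it was 0.19 for 13 members and 0.20 for 3400 genes. Members thus had sizes at or somewhat under those of other genes with as many counts.

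**Figure D2:**
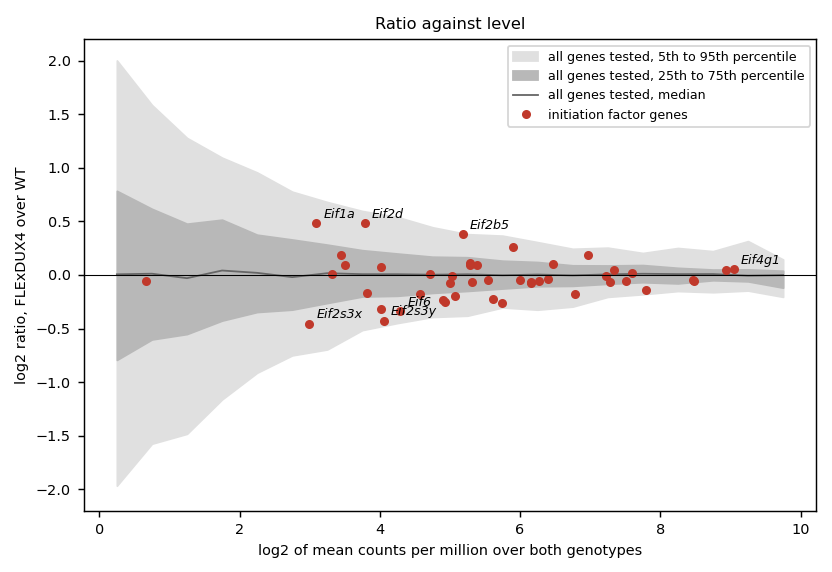
Log2 ratio (FLExDUX4 over WT) against the log2 of mean CPM; red points are the 46 initiation factor genes and grey bands are percentiles of all genes compared in steps of level. The bands narrow as the level rises, and red points lie mostly inside the outer band, with Eif2b5 (0.38) at its upper edge, Eif2s3y (-0.43) near its lower edge, and Eif1a and Eif2d (both 0.48) and Eif2s3x (-0.45) between the inner and the outer band.

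Levels differed far more between members than between genotypes. Eif4g1, the scaffold of eIF4F, was the most abundant, at 538 CPM in FLExDUX4 and 519 CPM in WT. Eif1, which guards the choice of the start codon, followed at 497 and 483 CPM. Eif4g2, a shorter relative of the scaffold that lacks the eIF4E site, had 349.6 and 362 CPM, and Eif2s2, the beta subunit of eIF2, had 349 and 361 CPM, so these neighbours differed by less than counting error. At the other end, Eif2s3x had 6.71 and 9.21 CPM and Eif3j2 had 1.54 and 1.62 CPM. The other 3 members were not compared: Eif4e1b, the oocyte form of eIF4E, and Eif2c5 had no count, which allows up to 3 counts in each total (a one-sided limit), and Eif5a2, the second eIF5A gene, had 0 counts in FLExDUX4 and 2 in WT. Eif2c5 is annotated as a noncoding RNA and carries an old name of the Argonaute family, so it fits the naming rule and not the function.

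**Figure D3:**
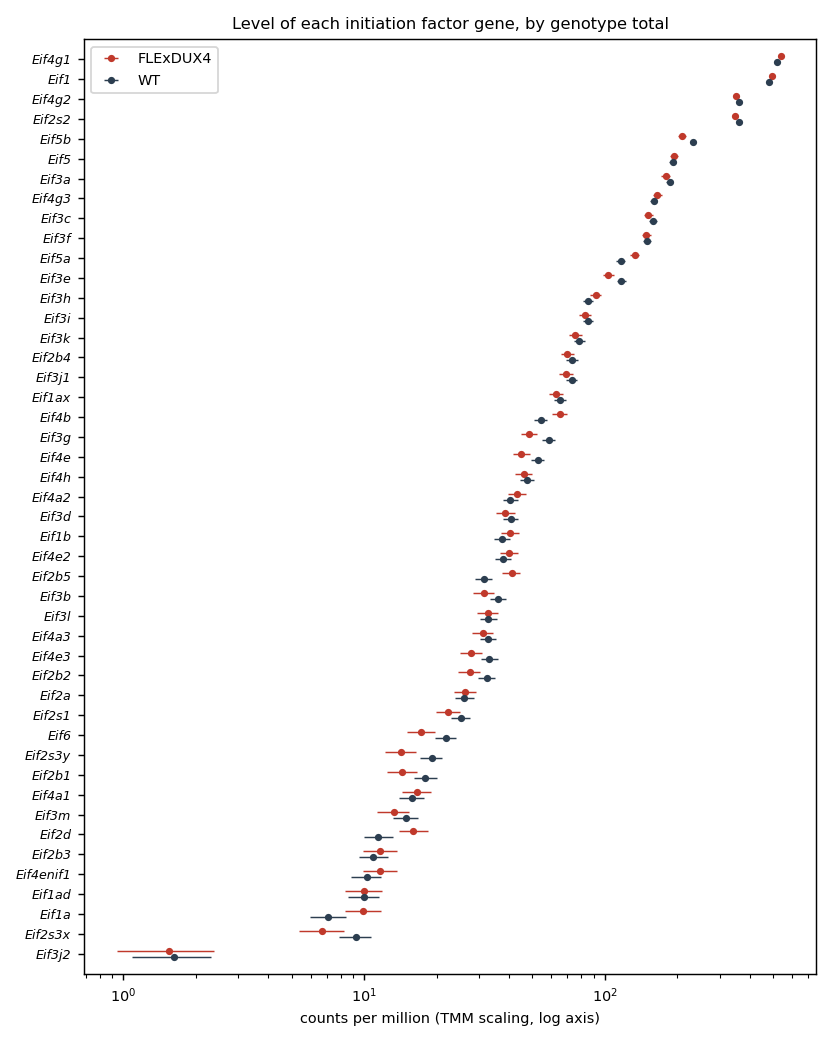
Level of each of the 46 genes in CPM (log axis) in the FLExDUX4 total (red) and the WT total (dark), with 95% Poisson intervals, sorted by the mean of both. Levels run from 1.58 CPM for Eif3j2 to 529 CPM for Eif4g1, and both genotypes follow the same course.

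The eIF2 complex delivers the initiator tRNA, and its gamma subunit, which binds the tRNA and GTP, is encoded on both sex chromosomes. Eif2s3x (chromosome X of GRCm38, 94188707 to 94212862, 12 exons) had 87 counts in FLExDUX4 and 171 in WT, a ratio of -0.45 (interval -0.85 to -0.08). Eif2s3y (chromosome Y, 1010543 to 1028847, 12 exons) had 184 and 354 counts, a ratio of -0.43 (interval -0.69 to -0.17). Both copies were thus lower by a like amount, and their sum, 271 against 525 counts, had a ratio of -0.44 (interval -0.65 to -0.22). Eif2s3y took 67.9% of the pair's counts in FLExDUX4 (interval 62.0 to 73.4) and 67.4% in WT (interval 63.2 to 71.4). Of 3 other Y-linked genes, Ddx3y had a ratio of -0.38 (interval -0.50 to -0.26), while Uty had -0.27 (interval -0.59 to 0.03) and Kdm5d had -0.13 (interval -0.49 to 0.21), and Ddx3x, the X-linked partner of Ddx3y, had 0.04. What these share with Eif2s3y was not tested.

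The other eIF2 subunits differed less. Eif2s1, the alpha subunit that stress kinases phosphorylate, had 290 and 469 counts, a ratio of -0.18 (interval -0.39 to 0.04). Eif2s2 had 4528 and 6707 counts, a ratio of -0.05 (interval -0.11 to 0.0042). The complex holds its subunits in equal number, but their counts were far from equal. Eif2s2 exceeded Eif2s1 in counts 15.6-fold in FLExDUX4 (interval 13.9 to 17.6) and 14.3-fold in WT (interval 13.0 to 15.7). Against both gamma genes together, Eif2s2 was 16.7-fold higher in FLExDUX4 (interval 14.8 to 19.0) and 12.8-fold in WT (interval 11.7 to 13.99). Eif2s1 and the gamma pair were at like levels, with folds of 1.07 and 0.893. All 4 ratios of the complex were below 0, and its sum had a ratio of -0.08 (interval -0.13 to -0.03).

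Genes of the translation machinery are known for a pyrimidine tract at the first transcribed base, through which growth signals control their mRNAs. A C at the first base followed by at least 4 bases that are each C or T was searched on the gene's strand in RefSeq start sites of GRCm38.p6. It was found for 3 of 39 members with a RefSeq window, Eif2s3x, Eif3f and Eif2c5 (7.69%), against 3.01% of all 27025 genes. Among compared genes it was 2 of 37 members (5.41%), without Eif2c5, against 3.10%. By windows it was 5.88% of the members' and 2.51% of all 32851. Shown are 30 bases, 10 before the start and 20 from it, with the run of C and T from the first transcribed base in capitals.
Eif2s3x (chrX:94212632-94212661, minus strand): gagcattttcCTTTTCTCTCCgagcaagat
Eif2s3y (chrY:1010585-1010614, plus strand): ggccacagccacttccttctttcgtgagca
Eif3f (chr7:108934405-108934434, plus strand): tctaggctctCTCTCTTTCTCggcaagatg
Eif2s3x and Eif3f both had a run of 11 from the first base, whereas the annotated start of Eif2s3y is an A that is followed by a run of 12. Whether the gamma genes differ in this tract therefore rests on the annotated first base of each. In GENCODE both genes begin upstream of the bases shown, at 94212862 for Eif2s3x and 1010543 for Eif2s3y. The ratio of Eif3f was -0.0058.

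eIF2B, the exchange factor that reloads eIF2 and that stress signaling blocks, has 5 subunits, and their ratios ran both ways. Eif2b5, which encodes the catalytic epsilon subunit, had 532 and 584 counts, or 41.0 and 31.5 CPM, a ratio of 0.38 (interval 0.21 to 0.55). With spike-in scaling it was 0.11, with an interval that held 0 (-0.066 to 0.28). Eif2b1, the alpha subunit, had 187 and 334 counts and a ratio of -0.32 (interval -0.59 to -0.06), and Eif2b2, the beta subunit, had 356 and 600 counts and -0.24 (interval -0.43 to -0.05). Eif2b3 and Eif2b4 had ratios of 0.09 and -0.06 with intervals that held 0. Summed, the complex stood at 164 CPM in FLExDUX4 and 166 CPM in WT, a ratio of -0.012 (interval -0.093 to 0.068). With spike-in scaling the sum was at -0.29.

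eIF3, the largest factor, is a scaffold on the small ribosomal subunit, and all 14 of its genes were compared. The ratios ran from -0.27 to 0.10 with a median of -0.063 and an SD over the genes of 0.093. Over all members this SD was 0.16 from 1000 to 3000 counts and 0.097 over 3000. Of these, 13 were below 0 and 1, Eif3h, above it, where 49.9% of all genes lay. The interval lay below 0 for Eif3g, with 630 and 1084 counts and a ratio of -0.27 (interval -0.41 to -0.12), for Eif3e, with 1344 and 2173 counts and -0.18 (interval -0.28 to -0.08), and for Eif3b, with 408 and 667 counts and -0.19 (interval -0.37 to -0.01). It was above 0 for none. These 3 of 14 are a share near the 20.6% of all genes compared, which was not matched for depth. Eif3h had 1188 and 1585 counts and 0.10 (interval -0.0093 to 0.21), or -0.18 with spike-in scaling. Summed over 14 genes, the ratio was -0.065 (interval -0.096 to -0.034).

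Among eIF3 genes, Eif3a, the largest subunit, had the highest level, at 179 and 186 CPM, followed by Eif3c at 152 and 159 CPM and Eif3f at 149 CPM in both. Eif3m, in the same core of the complex, had 13.3 and 14.9 CPM, so that Eif3a exceeded it 13.5-fold in FLExDUX4 and 12.5-fold in WT. The level of Eif3m is uncertain, since 43.7% of the 50-base stretches in the last 500 bases of Eif3m are also in a transcript of Gm7658, and such reads can be lost or split. The share was 30.4% for Eif3e, 20.8% for Eif3h and 29.5% for Eif4a3. For Eif3j2, a gene of a single exon, 88.9% of these stretches are in Eif3j1, and it took 2.18% and 2.17% of the pair's counts. Its 20 and 30 counts are therefore uncertain. Of the 49 members, 42 shared no such stretch with another annotated transcript.

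Cap binding rests on 3 expressed genes. Eif4e, the main cap-binding protein, had 584 and 979 counts, a ratio of -0.23 (interval -0.38 to -0.08). Eif4e3, a form known from muscle and heart, had 361 and 616 counts, a ratio of -0.25 (interval -0.45 to -0.06). Eif4e2, a homolog known for repressing bound mRNAs, had 521 and 700 counts and 0.09 (interval -0.08 to 0.26). As a result Eif4e2 made up 35.5% of the family's counts in FLExDUX4 (interval 33.1 to 38.1) and 30.5% in WT (interval 28.6 to 32.4). Such a share does not depend on the scaling of the totals. The difference of the log2 ratio of Eif4e2 from that of the rest of the family was 0.33 (interval 0.12 to 0.53, counting error only). Eif4enif1, which carries eIF4E into the nucleus, had 151 and 190 counts and a ratio of 0.19 (interval -0.13 to 0.50).

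The scaffold genes were deeply covered, and their ratios lay within 0.1 of 0. Eif4g1 had 6982 and 9636 counts, a ratio of 0.05 (interval 0.0070 to 0.10), which was -0.22 with spike-in scaling. Eif4g2 had a ratio of -0.05 (interval -0.11 to 0.0026) and Eif4g3 of 0.05 (interval -0.03 to 0.13). Eif4g1 took 51.1% of the counts of the trio in FLExDUX4 (interval 50.3 to 52.0) and 49.9% in WT (interval 49.2 to 50.6). Eif4g2 took 33.2% (interval 32.4 to 34.0) and 34.8% (interval 34.1 to 35.5), and its log2 ratio differed from that of the rest of the trio by -0.10 (interval -0.17 to -0.036, counting error only). Levels of the scaffold exceeded those of the cap-binding partner, as Eif4g1 stood 12.0-fold above Eif4e in FLExDUX4 (interval 10.99 to 13.0) and 9.84-fold in WT (interval 9.22 to 10.5).

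Of the helicase genes, Eif4a2 had 562 and 753 counts and Eif4a1 had 215 and 293. Eif4a2 therefore led in both genotypes, with 72.3% of the pair in FLExDUX4 (interval 69.0 to 75.4) and 72.0% in WT (interval 69.2 to 74.7), and the genotype shares differed by less than counting error. Their ratios were 0.09 (interval -0.07 to 0.25) and 0.07 (interval -0.19 to 0.33). Eif4a3, a relative that serves in the exon junction complex, had -0.08 (interval -0.26 to 0.11). Eif4b, which stimulates the helicase and is a target of S6 kinase, had 843 and 1006 counts, a ratio of 0.26 (interval 0.13 to 0.39), or -0.014 on the spike-in scale. Eif4h, its shorter relative, had 597 and 882 counts and -0.05 (interval -0.20 to 0.10). Within this pair Eif4b took 58.5% in FLExDUX4 (interval 55.9 to 61.1) and 53.3% in WT (interval 51.0 to 55.6).

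**Figure D4:**
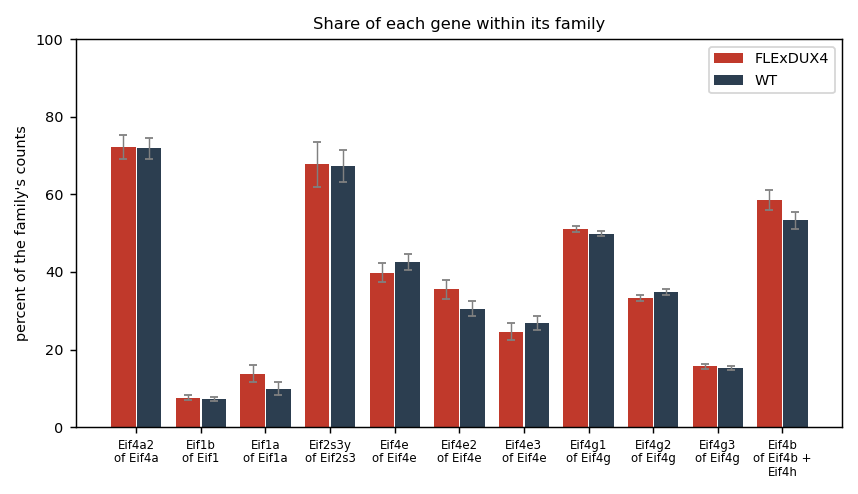
Percent of a family's counts on each gene in the FLExDUX4 total (red) and the WT total (dark), with 95% Clopper-Pearson intervals. Eif4a2 leads its pair at 72.3% and 72.0%, and the Eif4e2, Eif4b and Eif1a shares are higher in FLExDUX4 with intervals that do not overlap for Eif4e2 and Eif4b and that overlap slightly for Eif1a (11.5 to 16.0 and 8.33 to 11.6). The Eif4g2 share is lower in FLExDUX4, 33.2% against 34.8%, also without overlap.

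Genes of start codon selection were near 0 apart from Eif1a. Eif1 had 6449 and 8955 counts, a ratio of 0.04 (interval -0.0036 to 0.09), and Eif1b, its close copy, had 526 and 695 counts and 0.11 (interval -0.05 to 0.28). Eif1b made up 7.54% and 7.20% of the pair. Eif5, which triggers GTP hydrolysis by eIF2, had 2526 and 3563 counts and 0.02 (interval -0.05 to 0.09). eIF1A is encoded by Eif1a on an autosome and Eif1ax on the X chromosome. Eif1a had 129 and 132 counts, a ratio of 0.48 (interval 0.12 to 0.84), while on the spike-in scale it was 0.21, with an interval that held 0 (-0.15 to 0.57). Eif1ax had 816 and 1205 counts and a ratio of -0.05 (interval -0.18 to 0.08). The share of Eif1a was 13.7% in FLExDUX4 (interval 11.5 to 16.0) and 9.87% in WT (interval 8.33 to 11.6). Summed levels of the 6 genes of this group were 815 and 794 CPM. Eif1ad, a relative with an eIF1A domain, had 130 and 185 counts and a ratio of 0.0090 (interval -0.33 to 0.34).

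Of the factors that bring the initiator tRNA by other routes, Eif2d (chromosome 1, 131153181 to 131187658, 13 exons) had nearly equal counts in unequal totals, 208 and 213. Its ratio was 0.48 (interval 0.20 to 0.76), or 0.21 with spike-in scaling, with an interval that held 0 (-0.076 to 0.49). Eif2a, not to be confused with the alpha subunit of eIF2, had 341 and 484 counts and 0.01 (interval -0.19 to 0.21). Denr and Mcts1, whose proteins together resemble eIF2D, are not members and had ratios of -0.10 and -0.20 with intervals that held 0.

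Of the remaining factors, Eif5b and Eif6 had an interval below 0 and Eif5a above it. Eif5b, the GTPase of subunit joining, had 2727 and 4306 counts, a ratio of -0.14 (interval -0.21 to -0.07). Eif6, which keeps the large subunit from joining too early and has been linked to insulin signaling, had 224 and 406 counts, a ratio of -0.34 (interval -0.58 to -0.10). Eif5a, which helps the ribosome past difficult stretches and carries the hypusine modification, had 1725 and 2167 counts, a ratio of 0.19 (interval 0.10 to 0.28), or -0.089 on the spike-in scale.

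The E-box CACGTG is the site that CLOCK and its partner ARNTL bind, and MYC, a known activator of translation genes, binds it too. It reads the same on both strands and was searched in the 250 bases before each RefSeq start. It was found for 9 of the 39 members with a window (23.1%), against 6.86% of all 27025 genes. By windows it was 21.6% of the members' and 6.02% of all. Among compared genes with a window it was 8 of 37 members (21.6%), against 9.97% of 9606 genes. The 8 compared members are shown with the site in capitals and up to 20 bases on each side. They carry a motif that the naming rule did not use.
Eif1b (chr9:120492562-120492605, plus strand): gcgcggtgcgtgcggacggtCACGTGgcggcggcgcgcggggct
Eif3f (chr7:108934327-108934372, plus strand): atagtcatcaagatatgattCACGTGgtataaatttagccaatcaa
Eif3k (chr7:28981907-28981952, minus strand): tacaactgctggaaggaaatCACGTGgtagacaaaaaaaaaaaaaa
Eif4a1 (chr11:69672587-69672632, minus strand): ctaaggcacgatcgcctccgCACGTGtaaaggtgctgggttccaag
Eif4e (chr3:138527184-138527229, plus strand): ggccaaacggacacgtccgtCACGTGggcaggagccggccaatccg
Eif4g1 (chr16:20672653-20672698, plus strand): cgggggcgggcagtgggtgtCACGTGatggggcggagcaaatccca
Eif4h (chr5:134639480-134639525, minus strand): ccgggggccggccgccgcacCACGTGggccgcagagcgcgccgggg
Eif5a (chr11:69921435-69921480, minus strand): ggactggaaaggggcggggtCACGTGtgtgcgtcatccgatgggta
The sites begin from 24 bases (Eif1b) to 189 bases (Eif4a1) before the RefSeq start, and those of Eif4e and Eif5a precede only some of their RefSeq starts. The sites of Eif1b, Eif4e, Eif4g1 and Eif5a lie downstream of the outermost GENCODE start, inside the annotated gene. The Eif4e window holds 2 sites, of which 1 is shown. The 8 genes had ratios from -0.23 for Eif4e to 0.19 for Eif5a, with a median of 0.023, against -0.053 for the 29 compared members with a window and no site. A match is a run of letters and does not show binding.

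Regulators and later steps of translation were taken from a list of 34 genes that are not members, of which 33 were compared. Of these, 4 were past 1.5-fold (12.1%, against 26.8% of all genes): Eif2ak3 and Mknk1 higher, Eif2ak2 and Rps6kb2 lower. At least 100 counts were held by 31 of the 33, but not by Eif2ak2 and Eif2ak3. Among the 31 only Mknk1 and Rps6kb2 were past 1.5-fold, against 12.2% of all genes with at least 100 counts. The median ratio of the 33 was 0.038, and 19 were above 0 and 14 below. With spike-in scaling 9 were above 0, and the 4 past 1.5-fold were Eif2ak3, Eif2ak2, Rps6kb2 and Eef2k (-0.59), without Mknk1 (0.35). Among the kinases of eIF2, Eif2ak3, which encodes PERK, had 53 and 33 counts and a ratio of 1.19 (interval 0.55 to 1.87), while Eif2ak2, which encodes PKR, had 8 and 37 counts and -1.62 (interval -3.01 to -0.57). Eif2ak1 and Eif2ak4, at 0.26 (interval 0.09 to 0.42, or -0.020 with spike-in scaling) and 0.34 (interval -0.18 to 0.86), were nearer to 0. Ppp1r15b, a subunit of the phosphatase that reverses these kinases, had 248 and 249 counts and 0.51 (interval 0.25 to 0.77). With spike-in scaling Ppp1r15b was at 0.23, with an interval that held 0. Ppp1r15a had -0.10 under TMM scaling.

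In the control of eIF4E, 5 of the 7 compared genes had an interval above 0 and 2 below. The shares over all genes, not matched for depth, were 20.5% and 20.6%. The sum over the 7 had a ratio of 0.16 (interval 0.12 to 0.21), which spike-in scaling turned to -0.11. On that scale 2 of the 7 had an interval above 0 (Eif4ebp1 and Mknk1) and 4 below. Eif4ebp1, the binding protein that holds eIF4E back, had 49.3 and 33.9 CPM, and Mknk1, a kinase of eIF4E, had 238 and 221 counts and a ratio of 0.62 (interval 0.35 to 0.89). Eif4ebp1 and Eif4e thus lay on opposite sides of 0, also with spike-in scaling (0.27 and -0.50). Rps6kb2, an S6 kinase, had 101 and 237 counts and -0.71 (interval -1.06 to -0.37), and Rps6kb1 had 767 and 1204 counts and -0.13 (interval -0.27 to -0.0023). Genes of elongation lay between -0.31 (Eef2k) and 0.41 (Eef1a1), none past 1.5-fold with TMM scaling. Eef1a2, the form of mature muscle, had 824 and 903 CPM against 17.6 and 13.2 CPM for Eef1a1. Etf1 and Gspt1, which end translation, had ratios of -0.20 and 0.01.

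**Figure D5:**
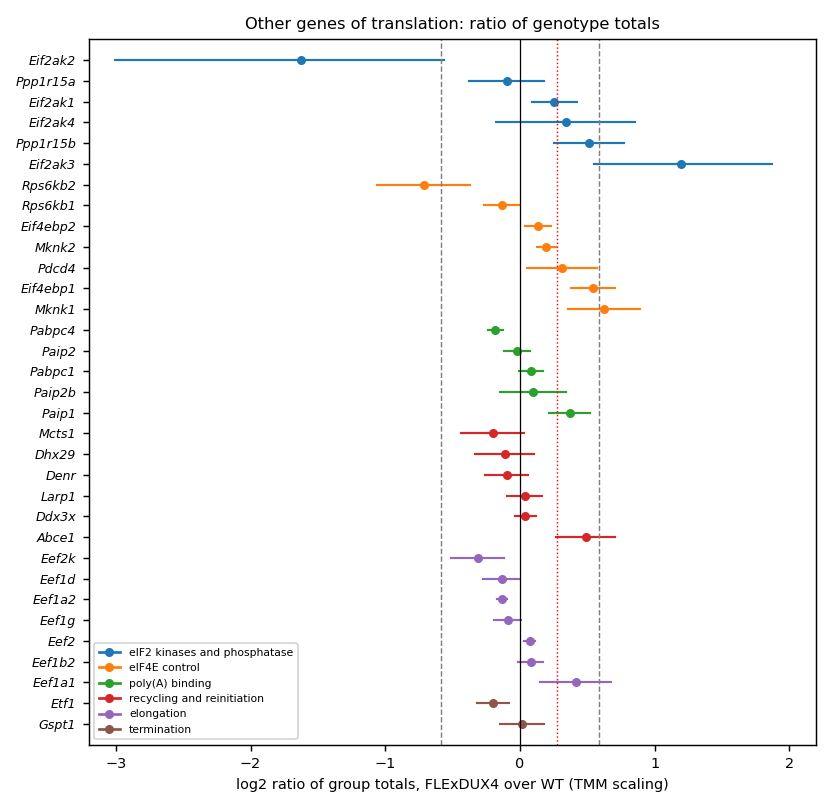
Log2 ratio of genotype totals for the 33 compared genes of translation that are not initiation factors, coloured by role, with 95% counting intervals; dashed lines mark 1.5-fold and the red dotted line marks no difference under spike-in scaling. Eif2ak2 and Eif2ak3, both with few counts, lie farthest from 0 on opposite sides, and elongation genes lie between -0.31 and 0.41.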

How the data were processed

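Per the labels and the study's methods, reads were trimmed with Cutadapt 1.16, aligned with STAR 2.5.3a, and counted with featureCounts 1.6.2. The submitters' processing notes list both GRCh38 and GRCm38, and the methods name GRCm38 joined to ERCC and SIRV spike-ins. The strand setting is not given in the sources used here, and Eif3j1, Eif3m, Eif4a2 and Eif5b overlap a gene on the other strand near their ends. The authors deposited raw counts of 52649 features summed over each genotype, and these totals were used. Another 6 columns of single libraries, whose names match no label, and 6 columns of the authors' DESeq2 comparison (mean, fold change, error, statistic and p-values) were not used. The planned edgeR test per mouse was therefore not run.

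Spike-ins (99 features) were left out of the totals. Genes were kept by filterByExpr (13396) and given TMM size factors with edgeR 4.0.16 under R 4.3.3. Ratios carry a pseudocount of 0.5, and intervals were computed in Python 3.11.15 with scipy 1.17.1. The intervals were tested on simulated data that held counting error only. That test cannot speak for variation between mice or for PCR copies. PCR copies are not independent, so intervals cover counting error only. The rule for names covered every member and the listed pathway genes. The members and the gene lists were chosen with earlier results of these data known. Coordinates are from GENCODE on GRCm38 and are printed where the start equals the deposited one. RefSeq windows on GRCm38.p6 matched 39 of 49 members. Alternatives were other scalings, filters, pseudocounts and folds.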

Additional observations from a re-analysis of the deposited data

How the results depend on the processing

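No paired analysis was possible because the names of the single-library columns match no label, so none could be tied to a mouse, and for the same reason no mouse was left out and no edgeR test was run. Spike-in totals shifted every gene by -0.28. With them, 4 members were past 1.5-fold, 35 had a counting interval that excluded 0 (17 with TMM; 54.7% of all genes with spike-in totals), 3 were above 0 (18 with TMM) and the median ratio was -0.32. By that shift 15 of the 18 changed sign, and of the 6 members with an interval above 0 none kept it. Of these 6, the sign changed for Eif4g1 (-0.22), Eif4b (-0.014) and Eif5a (-0.089). The median was -0.064 with the upper quartile and -0.078 with total counts on genes. Without a filter, 1 member was past 1.5-fold, Eif5a2, with 2 counts in all. At a lower limit, a log2 ratio of 0.32, there were 6. With the other settings (RLE, 10 counts in each total, a pseudocount of 5, 2-fold, members with at least 100 counts, and no Eif2s3y or near-identical copies), none was past the limit. Adding pseudogene counts kept all 40 family shares within their intervals. Why spike-ins and TMM differ was not tested.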
